A study of Rattus norvegicus with 6 samples.

Results

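Oxidative phosphorylation subunits encoded in the nucleus were described in dorsal skin wounds of diabetic rats, in which wounds treated with DST-MNs were compared with untreated wounds. Members were the genes of the expression table whose symbols begin with Ndufa, Ndufb, Ndufc, Ndufs, Ndufv, Uqcr, Atp5 or Cox4 to Cox8, leaving out Ndufaf, together with Sdha, Sdhb, Sdhc, Sdhd, Cyc1 and Cycs. This gave 88 of 18825 listed genes. They divided into 40 of complex I, 4 of complex II, 10 of complex III with cytochrome c, 16 of complex IV and 18 of complex V.

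The animals were male Sprague–Dawley rats made diabetic by a diet rich in fat and sucrose and then streptozotocin, a toxin of pancreatic beta cells, and all carried full-thickness wounds. Control wounds were untreated. DST-MNs are microneedles that carry spheroids of dental pulp stem cells regulated with spermidine and TGF-β3, and the labels name no group with blank microneedles, so the needle and its cargo cannot be told apart. Each group had 3 libraries, called biological replicates, with no day of collection and no age given.

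The respiratory chain sits in the inner mitochondrial membrane. Complexes I and II pass electrons from NADH and succinate to coenzyme Q, complex III passes them on to cytochrome c, and complex IV hands them to oxygen. Proton pumping by complexes I, III and IV drives complex V, the ATP synthase. A few subunits of complexes I, III, IV and V come from mitochondrial DNA and were not analysed here. Several complex IV subunits exist as a widespread and a tissue-restricted paralogue, and in skin the muscle forms are known from the thin muscle layer beneath the dermis.

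Library totals ran from 12545206 to 13818548 counts. The fibroblast collagen gene Col1a1 lay between 6116 and 9627 TPM (a transcript level scaled by gene length and library), while the basal keratinocyte keratin Krt14 lay between 6.90 and 1913 TPM. The libraries held unequal amounts of skeletal muscle transcripts. The summed level of 18 skeletal muscle genes was 12864 TPM in control 1, 33.9 in control 2 and 724 in control 3, against 10623, 12827 and 10088 in DST-MNs 1, 2 and 3. In control 2, 5 of the 18 were at 0 counts, among them Ckm, the muscle creatine kinase, and Mb, myoglobin. Epithelial markers also differed between the groups. The 7 sebaceous gland genes summed to 15.9 to 36.2 TPM in controls and 416 to 468 TPM after treatment, with 4 called higher by edgeR and 6 by DESeq2. The 7 keratinocyte genes measured summed to 12.1 to 179 TPM in controls and 295 to 4083 TPM after treatment, with the lowest treated sum in DST-MNs 2. Of these 7, edgeR called 0 and DESeq2 called 3 higher, and Krt10 overlapped between groups. The 5 fibroblast genes summed to 21298 to 28851 TPM in controls and 18894 to 24295 TPM after treatment. All 5 had negative log2 changes (DST-MNs minus control), with a median of -0.52, and were lowest in DST-MNs 1 in CPM. Among them edgeR called 0 and DESeq2 called 1 lower, Pdgfra (DESeq2 adjusted p = 1.5e-07), where DESeq2 called 2.72% of all genes lower. The part of these cell types in the results on subunit genes was not tested. In bulk tissue, fewer cells of a type and less RNA per cell cannot be told apart.

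Of the 88 members, 84 passed the filter on low counts. The 4 that did not were Atp5hl1, with 6 to 10 counts a library, and Ndufa10l1, Ndufa13-ps1 and Ndufb4l1-ps1, none above 4.94 counts in any library. The subunit genes that passed were strongly expressed. Together they made up 2.65% to 3.01% of all TPM of a library. Their median level was 236 TPM, against 14.1 TPM over all 14427 genes tested. Complex V and complex IV subunits had the highest median levels, 522 and 514 TPM, followed by 184 for complex III with cytochrome c, 168 for complex I and 140 for complex II. Atp5me, a small membrane subunit of ATP synthase, had the highest mean over the 6 libraries at 1288 TPM. Cox4i1, the widespread form of a nuclear subunit of complex IV, stood at 1096 TPM. In complex III the small subunit Uqcr10 was highest at 628 TPM and the core protein Uqcrc2 lowest at 101. Complex I ran from Ndufs1, its large iron-sulfur subunit, at 33.8 TPM to Ndufa1, a small membrane subunit, at 450. Complex II ran from Sdha, the flavoprotein, at 69.3 TPM to Sdhd, a membrane anchor, at 169.

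**Figure D1:**
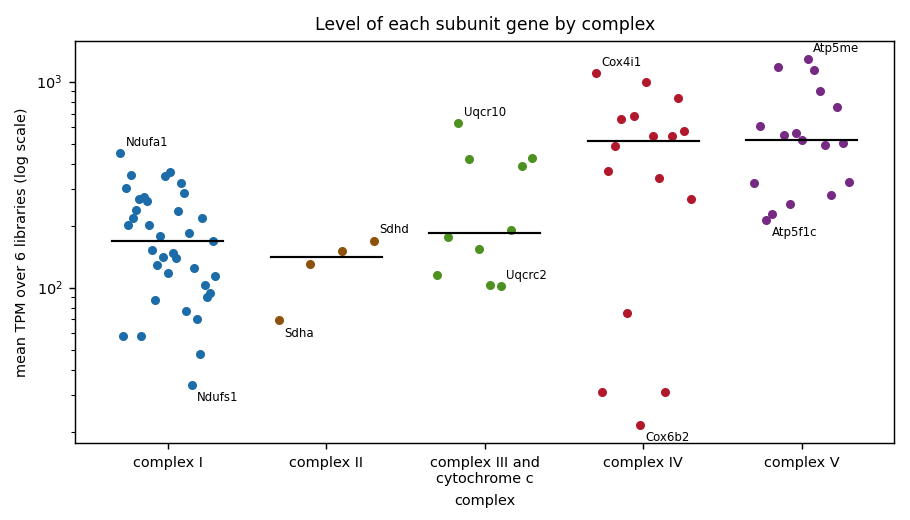
Mean TPM of the 84 measured subunit genes over the 6 libraries (log scale) by complex, with 1 point a gene and a line at the median of each complex. Medians of complexes IV and V, 514 and 522 TPM, lie above those of complexes I, II and III, and the genes with the highest and lowest levels of each complex are named.

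No subunit gene passed the test across all genes. With edgeR's quasi-likelihood method and Benjamini-Hochberg adjustment, 0 of 84 members had an adjusted p below 0.05, where 0.776% of all genes tested did (0.658% higher and 0.118% lower). Before adjustment, 2 members (Ndufa2 and Cox6c) had a p below 0.05, both lower, and 0 were higher. Of all genes tested, 16.7% had such a p, 9.8% higher and 6.88% lower. DESeq2 called 0 members and 7.06% of all genes, 4.34% higher and 2.72% lower. Limma-voom, the fit with a replicate block and a limma trend test on TPM also called 0 members, against 0.658%, 0.853% and 0.982% of the genes each tested.

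The differences were also narrowly bounded for most members. The 95% interval of the log2 change lay within a 1.5-fold change in both directions for 64 of 84 members (76.2%), against 35.5% of all genes tested. Among the 2548 genes tested with a mean between 49.0 and 984 TPM, the range of the central members, the share was 46.0%. Intervals within a 2-fold change were found for 80 members, and the 4 exceptions were Cox6a2, Cox8b, Cox7a2l2 and Ndufa4l2. The median standard error was 0.147 on the log2 scale for members and 0.201 for all genes.

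**Figure D2:**
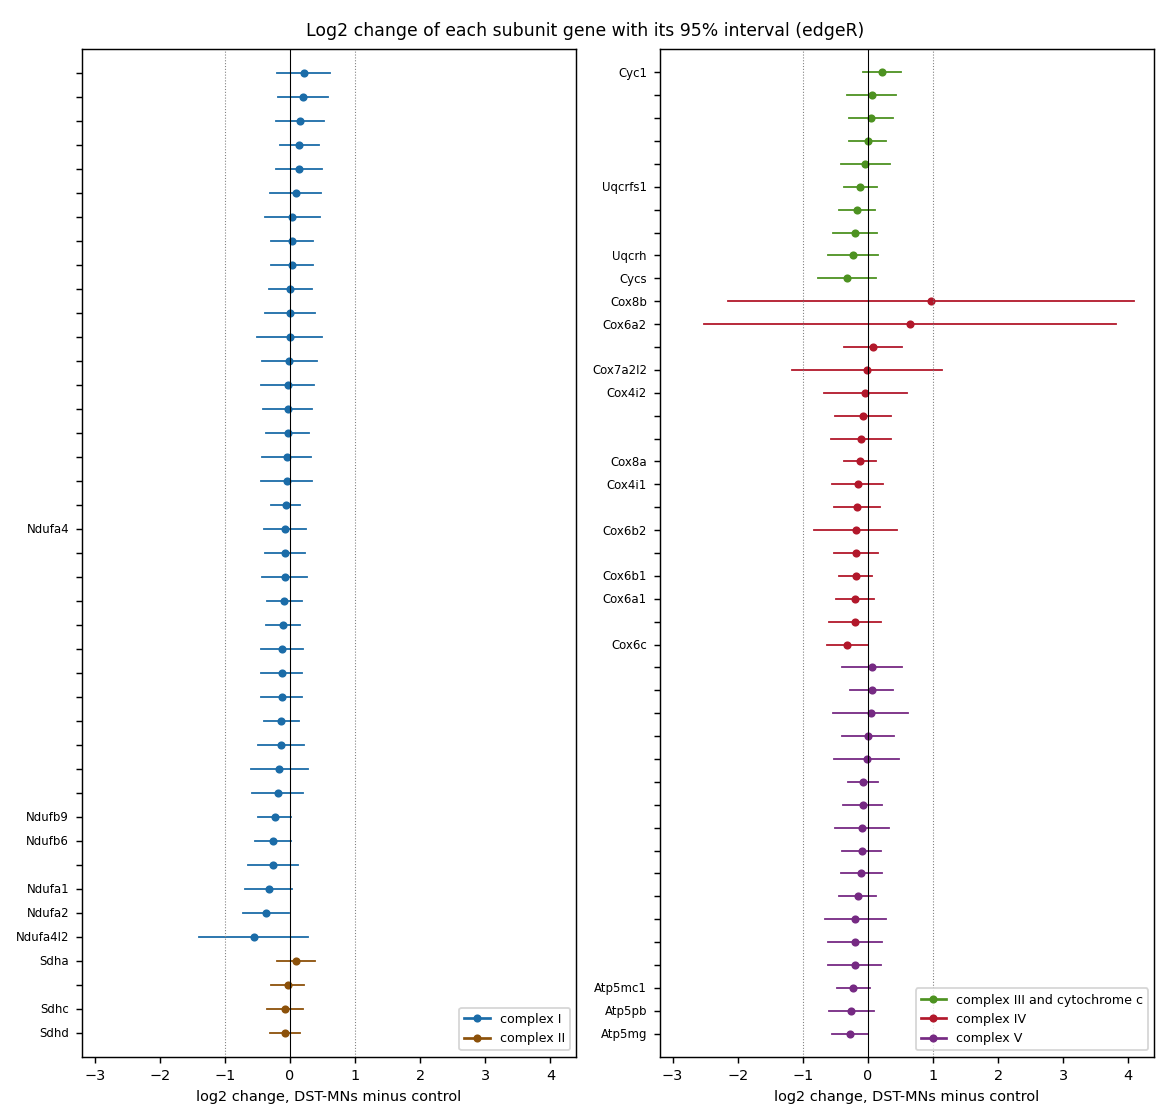
Log2 change (DST-MNs minus control) of each of the 84 measured subunit genes, with its 95% interval from edgeR's quasi-likelihood fit, coloured by complex, with dotted lines at a 2-fold change and names for some of the genes described in the text. The points lie close to 0, and the intervals of Cox6a2, Cox8b, Cox7a2l2 and Ndufa4l2 reach past 2-fold.

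The median log2 change of the 84 members was -0.08, with 63 below 0 and 21 above, beside a median of 0.00 for all genes tested. Among the 2548 genes of similar level the median was -0.16 and 75.4% were below 0, close to the 75.0% of the members. The sign depended on the scaling. With library totals in place of TMM factors, which correct for the make-up of each library, the median of all genes moved to 0.12, that of the members to 0.03, and 34 of 84 members lay below 0. Relative to all genes, the members lay at -0.09 with either scaling. On the log2(TPM + 1) scale 22 of 86 members lay below 0.

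By complex, medians were -0.07 for complex I, -0.06 for complex II, -0.08 for complex III with cytochrome c, -0.14 for complex IV and -0.10 for complex V. The SD between libraries of a group, for the per-library median of the same genes, was 0.134, 0.0489, 0.101, 0.113 and 0.110. The medians of complexes I, III and V were smaller than this spread, and those of complexes II and IV were larger. Single libraries moved them. Without DST-MNs 2 the medians were 0.0083, -0.018, -0.034, -0.11 and -0.011 for complexes I to V in turn, and without control 1 they were -0.029, -0.034, -0.029, -0.12 and -0.072. Without DST-MNs 3 they were -0.13, -0.074, -0.13, -0.18 and -0.17. Complex III was at -0.14 without control 2, complexes I and II at -0.11 and -0.097 without control 3, and complex V at -0.16 without DST-MNs 1. Summed levels of the complexes overlapped between groups. Complex I subunits summed to 6974, 6466 and 6571 TPM in controls 1, 2 and 3 and to 7516, 6460 and 7156 TPM in DST-MNs 1, 2 and 3. For complex V the sums were 10223, 9756 and 9802 TPM in controls and 11150, 9454 and 10459 TPM after treatment. Both complexes had their highest sum in DST-MNs 1 and their lowest in DST-MNs 2.

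Many subunits, though not all parts of the complexes, varied together between libraries of the same group. In normalised CPM (counts scaled to library size after TMM correction), DST-MNs 2 had the lowest value of the 6 libraries for 48 of 84 members (57.1%), where it was lowest for 14.9% of all genes tested and 22.1% of those of similar level. Complex V led with 13 of 17, followed by complex I with 24 of 37. Within complex I it was 21 of 28 accessory but 2 of 7 core subunits, with Ndufa4 and Ndufa4l2 in neither. Complex IV had 7 of 16, complex III with cytochrome c 3 of 10 and complex II 1 of 4. The median deviation of the members' log2 CPM from the mean of the 6 libraries was -0.20 in DST-MNs 2 against -0.02 and 0.08 in DST-MNs 1 and 3. In controls 1, 2 and 3 it was 0.14, 0.04 and -0.04. In DST-MNs 1 the parts differed. The median deviation there was 0.16 for complex I core subunits and 0.27 for the F1 genes of complex V. Among the F1 genes, Atp5f1e had its lowest value of the 6 libraries there, at 66.5 CPM. The median deviation was -0.06 for complex I accessory subunits and -0.13 for the complex V membrane genes. For all genes of similar level it was -0.13, and for all genes tested -0.01. Control 1 had the highest value for 31 members (36.9%), against 12.2% of all genes and 16.2% of those of similar level. The treated libraries lay on both sides of control 3. Neutrophil markers were unevenly spread too, with 5 genes that summed to 2814, 3366 and 1250 TPM in the controls, beside 1512, 3823 and 1234 TPM for the treated wounds. Most of each sum came from S100a8 and S100a9, at 1237 and 1549 TPM in control 1. Of the 4 neutrophil genes that passed the filter, 3 were highest in control 2 and 1 in DST-MNs 2. The part of neutrophils in the result was not tested. Without DST-MNs 2 the median log2 change of the members was -0.01, and without DST-MNs 3 it was -0.14.

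**Figure D3:**
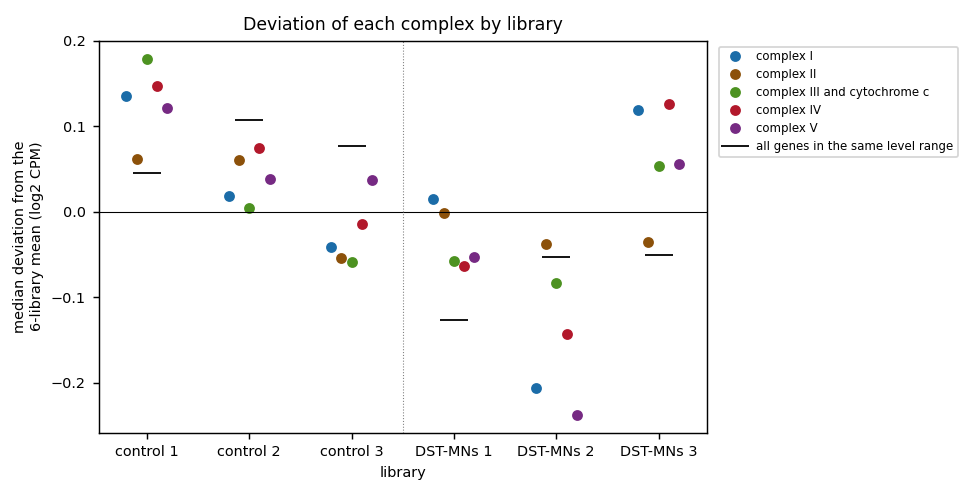
Median deviation of log2 CPM from the mean of the 6 libraries for each complex (coloured points) in each library, with black bars for the 2548 genes of similar level. Complexes I, III, IV and V are lowest in DST-MNs 2 and complex II in control 3, while DST-MNs 3 and control 1 lie above 0 for complexes I, III, IV and V.

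Groups did not overlap for 10 members, all lower after treatment, in normalised CPM. Of all genes tested, 10% were lower and 12.9% higher without overlap (22.9% in either direction), and 0 members were higher. The members' share lower, 11.9%, is near that of all genes and below the 22.5% of genes of similar level, of which 4.79% were higher. The 10 were Ndufa1, Ndufa2, Ndufb6, Ndufb9, Uqcrfs1, Cox6b1, Cox6c, Atp5mc1, Atp5mg and Atp5pb. In TPM, which is not TMM scaled, 1 member was lower without overlap, Ndufa1, against 3.08% of genes. Another 6 were higher in TPM (Ndufa13, Ndufs7, Sdhb, Cyc1, Uqcrb and Atp5f1d), against 21.1% of genes.

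Among complex I genes, Ndufa2, an accessory subunit of the NADH-oxidising arm, had 56.3, 48.5 and 51.5 CPM in controls 1, 2 and 3 and 38.2, 35.002 and 47.9 CPM in DST-MNs 1, 2 and 3. All 3 treated values lay below the lowest control, the closest of them in DST-MNs 3. The fitted difference was -0.37 on the log2 scale (SE 0.15, edgeR adjusted p = 0.278). Ndufa1 had 55.0, 56.1 and 55.2 CPM in controls against 42.0, 36.8 and 53.4 after treatment, which is -0.33 in log2 (SE 0.15, edgeR adjusted p = 0.329). The controls were almost level, and DST-MNs 3 sat just beneath them. Ndufb6, a subunit of the membrane arm, was at -0.26 (SE 0.12, edgeR adjusted p = 0.331).

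Complex II, whose 4 subunits also run a step of the citric acid cycle, was the steadiest of the complexes, with a median within-group SD of 0.0995 log2 CPM against 0.241 for all genes. Sdha had 105, 100.4 and 101 CPM in controls and 125, 104 and 97.9 CPM after treatment, with overlap of the groups. Its log2 change was 0.09 (SE 0.12), and -0.03 without DST-MNs 1. Sdhb, the iron-sulfur subunit, was at -0.04 (SE 0.10) and the anchors Sdhc and Sdhd at -0.08 each (SE 0.11 and 0.10). With library totals Sdhc and Sdhd turned to 0.04 each. All 4 intervals lay within a 1.5-fold change.

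In complex III, Cyc1, the cytochrome c1 haem subunit, had 81.6, 75.7 and 77.4 CPM in controls against 103, 80.8 and 88.7 after treatment. DST-MNs 1 was the highest, and DST-MNs 2 fell within the control range. The log2 change was 0.22 (SE 0.12, edgeR adjusted p = 0.426). Cycs, the soluble carrier cytochrome c, went the other way at -0.32 (SE 0.19, edgeR adjusted p = 0.431), with 138, 162 and 117 CPM in controls and 135, 95.1 and 102 CPM after treatment. Its groups overlapped, and its deposited counts were not whole in any of the 6 libraries, so reads may be split with a near copy and its level is uncertain. Uqcrh, the hinge protein that contacts cytochrome c1, was at -0.23 (SE 0.16).

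In complex V, Atp5mg, a membrane subunit of the ATP synthase dimer, had 147, 149 and 147 CPM in controls and 138, 115 and 114 CPM after treatment. The treated values lay below every control, at -0.27 in log2 (SE 0.12, edgeR adjusted p = 0.307). Atp5mc1, one of the genes for the identical c subunit of the rotor ring, was at -0.22 (SE 0.11). The peripheral stalk gene Atp5pb was at -0.26 (SE 0.14). All 4 measured peripheral stalk genes and all of 4 membrane genes (Atp5me, Atp5mf, Atp5mg and Atp5mk) had negative values. Their medians were -0.10 and -0.20. The 3 c ring genes, also in the membrane, had a median of -0.16, with Atp5mc3 at 0.06. The 5 F1 genes (Atp5f1a to Atp5f1e, the catalytic head and central stalk) had a median of 0.00. The difference between these parts was not tested. Of the measured complex V genes 76.5% were below 0, as were 75.4% of the genes of similar level. On the TPM scale the peripheral stalk genes and the 4 membrane genes other than the c ring were split. Mean TPM was higher after treatment for Atp5me, Atp5mk, Atp5pd, Atp5pf and Atp5po and lower for Atp5mf, Atp5mg and Atp5pb. The catalytic α and β subunit genes stood apart in DST-MNs 1. Atp5f1a was at 398, 382 and 380 CPM in controls and 503, 304 and 336 CPM in DST-MNs 1, 2 and 3. Atp5f1b was at 730, 626 and 669 CPM in controls and 861, 548 and 705 CPM after treatment. For both genes treated libraries held the highest and the lowest value. Hair follicle genes were also far higher in DST-MNs 1, where 5 markers summed to 821 TPM against 0.410 to 10.4 TPM in the other libraries, and their part was not tested. Atp5if1, the inhibitor of ATP hydrolysis, was at -0.10 (SE 0.13).

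Complex IV held the members that differed most between libraries. Cox6a2 and Cox8b are the heart and skeletal muscle forms of subunits whose widespread forms are Cox6a1 and Cox8a. The windows around their starts are shown because these 2 genes were high and low in the same control libraries while Cox8a was not. The sequences are from RefSeq (GRCr8, 250 bases before to 50 after the start), where 75 of the 88 members were matched. For Cox8b (chr1:205408224-205408523, minus strand) and Cox6a2 (chr1:192219667-192219966, minus strand) capitals mark the E-box CANNTG, bound by muscle regulators of the MyoD family among others, and the MEF2 motif. For Cox8a (chr1:213833574-213833873, minus strand) they mark the ETS motif CCGGAAG, the YY1 motif AANATGGC and AAGGTCA, the motif of oestrogen-related receptors, here called ERR. For Sdha (chr1:30764303-30764602, plus strand), which had more copies than any other matched member, they mark the motif of NRF1, a regulator of respiratory genes. Only the motifs named for a gene are marked in its window. An E-box in Cox8a, and an E-box and a YY1 match in Sdha, are left in lower case. Both strands were searched, and no marked matches overlap in these windows.
Cox8b: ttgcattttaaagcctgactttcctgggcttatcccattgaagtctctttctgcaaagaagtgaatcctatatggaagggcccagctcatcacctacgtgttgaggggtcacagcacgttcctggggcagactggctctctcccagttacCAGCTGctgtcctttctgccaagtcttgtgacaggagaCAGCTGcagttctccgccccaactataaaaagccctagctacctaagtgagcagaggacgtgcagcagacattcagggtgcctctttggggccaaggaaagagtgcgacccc
Cox6a2: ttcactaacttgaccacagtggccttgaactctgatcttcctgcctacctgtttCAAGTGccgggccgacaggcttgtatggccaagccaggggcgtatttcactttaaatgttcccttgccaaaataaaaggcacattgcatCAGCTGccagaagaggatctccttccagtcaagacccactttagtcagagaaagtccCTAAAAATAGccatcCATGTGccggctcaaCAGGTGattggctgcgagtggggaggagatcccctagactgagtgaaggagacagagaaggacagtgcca
Cox8a: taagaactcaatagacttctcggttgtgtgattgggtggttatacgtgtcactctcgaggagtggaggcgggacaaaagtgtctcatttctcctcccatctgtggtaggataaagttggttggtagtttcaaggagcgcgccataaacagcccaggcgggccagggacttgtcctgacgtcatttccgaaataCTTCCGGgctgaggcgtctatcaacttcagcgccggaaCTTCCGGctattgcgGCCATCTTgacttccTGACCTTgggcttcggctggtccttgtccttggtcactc
Sdha: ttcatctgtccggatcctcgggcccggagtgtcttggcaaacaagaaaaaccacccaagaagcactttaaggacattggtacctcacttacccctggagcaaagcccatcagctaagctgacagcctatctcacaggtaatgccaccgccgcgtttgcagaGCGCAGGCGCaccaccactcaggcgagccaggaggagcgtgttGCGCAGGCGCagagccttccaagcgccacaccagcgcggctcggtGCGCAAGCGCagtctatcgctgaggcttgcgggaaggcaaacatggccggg

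Cox8b had 2 E-boxes, Cox6a2 had 4 with 1 MEF2 match, and Cox8a and Sdha had 1 E-box each. An E-box is common, present in 71.6% of 27457 windows of this length and in 61.3% of the member windows, and MEF2 was in 3.83% of all windows and 4% of the members'. The motifs of respiratory gene regulators were found in larger shares of members than of all windows. YY1 was in 37.3% against 7.36%, ETS in 28% against 9.22%, NRF1 in 17.3% against 4.71% and ERR in 13.3% against 4.37%. Sdha had 3 NRF1 matches. The median G and C content was 56.3% for members and 52.3% for all windows, and its part in these shares was not tested. A match describes letters and is not evidence of binding.

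Cox6a2 was at 147 TPM in control 1, 0 in control 2 and 14.9 in control 3, and at 84.8, 106 and 98.2 TPM in DST-MNs 1, 2 and 3. The treated libraries lay close together, and the controls lay both above and below them. A count of 0 in control 2 allows up to 0.233 CPM (3 counts, counting error only). The log2 change was 0.65 (SE 1.33, 95% interval -2.51 to 3.82, edgeR adjusted p = 0.839). Without controls 1, 2 and 3 in turn it was 3.57, 0.06 and 0.20. Cox8b had the same order among controls, with 448, 0 and 45.4 TPM in controls 1, 2 and 3, and was at 293, 483 and 353 TPM in DST-MNs 1, 2 and 3. Control 1 lay within the range of the treated libraries and the other controls below it. Its log2 change was 0.97 (SE 1.31, 95% interval -2.15 to 4.09, edgeR adjusted p = 0.747), or 3.81, 0.38 and 0.52 without controls 1, 2 and 3. With the replicate number as a block the values were 2.35 for Cox6a2 and 2.57 for Cox8b. With limma-voom they were 3.38 and 3.58, and neither gene passed in either fit.

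The widespread partners showed no such pattern. Cox6a1 was at 594, 638 and 767 TPM in controls and 698, 634 and 628 after treatment. Cox8a was at 529, 604 and 574 TPM in controls and 633, 584 and 550 after treatment. Cox8b thus made up 45.8%, 0% and 7.33% of the pair's TPM in controls 1, 2 and 3. In DST-MNs 1, 2 and 3 its share was 31.6%, 45.3% and 39.1%. The Cox6a2 share of its pair was 19.9%, 0% and 1.90% in controls and 10.8%, 14.3% and 13.5% after treatment. In both pairs the exact two-sided permutation test of the log2 ratio gave p = 0.4 (adjusted p = 1 over 5 pairs). The smallest p that 3 against 3 libraries can give is 0.1.

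These shares kept the order of the skeletal muscle genes among controls. Per 1000 TPM of the 18 muscle genes, Cox8b stood at 34.8 and 62.7 in controls 1 and 3 and at 27.6, 37.6 and 34.98 in DST-MNs 1, 2 and 3. Cox6a2 stood at 11.5 and 20.5 in controls 1 and 3 and at 7.99, 8.29 and 9.74 after treatment. Ckmt2, the mitochondrial creatine kinase of striated muscle, was at 0 CPM in control 2 as well, at 19.3 and 2.02 in controls 1 and 3 and at 15.3, 11.7 and 16.6 after treatment. Of the 18 muscle genes 17 had positive log2 changes, with a median of 1.10. None passed edgeR's test, and DESeq2 called 1 higher, the slow myosin gene Myh7 (2.88 in log2, adjusted p = 0.0192, against 0.188 with edgeR). Acta1, skeletal actin, was at 2389, 0.388 and 61.0 CPM in controls and 1476, 1537 and 1226 CPM after treatment. Whether the amount of muscle accounts for the complex IV isoforms was not tested. Of the brown fat markers, the defining gene Ucp1 had 1 count in control 2 and 0 in the other libraries. The 4 brown fat genes summed to 4.34 to 16.6 TPM in controls and 161 to 234 TPM after treatment, but only Cidea and Elovl3 were higher without overlap. Cidea lay at 3.19 to 14.2 TPM in controls and 65.2 to 93.2 after treatment. Elovl3 lay at 0 to 3.22 and 83.4 to 139 TPM. Dio2 overlapped, at 0.32 to 2.05 and 0.24 to 3.74 TPM. The sum is therefore no measure of brown fat, and the source of the Cidea and Elovl3 transcripts was not tested.

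**Figure D4:**
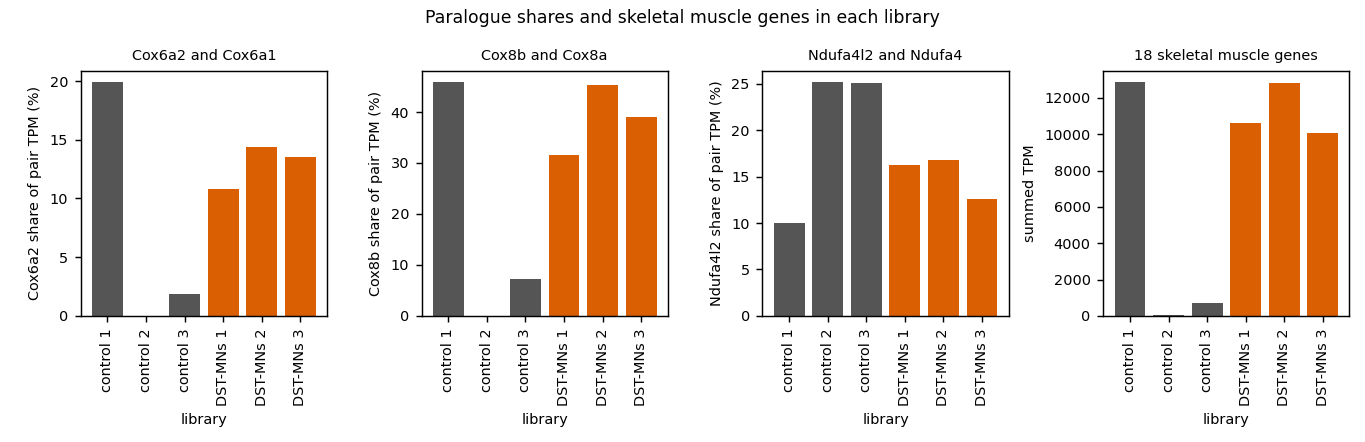
Share of the restricted paralogue in the TPM of its pair (%) for Cox6a2, Cox8b and Ndufa4l2, and the summed TPM of 18 skeletal muscle genes, as bars for each library (grey control, orange DST-MNs). Cox6a2, Cox8b and the muscle genes are near 0 in control 2, low in control 3 and high in control 1 and the 3 treated libraries.

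Ndufa4l2 is a paralogue of Ndufa4 induced by hypoxia and found in pericytes. Ndufa4 carries a complex I name but is known as a complex IV subunit. Ndufa4l2 was at 31.9, 80.6 and 85.9 TPM in controls 1, 2 and 3 and at 61.6, 51.2 and 37.5 TPM in DST-MNs 1, 2 and 3. Control 1 was the lowest library and controls 2 and 3 the highest. The log2 change was -0.56 (SE 0.35, edgeR adjusted p = 0.467), or -0.88, -0.39 and -0.36 without controls 1, 2 and 3. Its share of the pair was 9.97%, 25.2% and 25.1% in controls and 16.2%, 16.8% and 12.6% after treatment (exact permutation p = 0.6, adjusted p = 1). Ndufa4 itself overlapped between groups at 240 to 288 TPM in controls and 254 to 318 TPM after treatment. The 7 mural cell markers had a median log2 change of -0.06, with 3 above 0 and 4 below, from 0.25 (SE 0.30) for the pericyte gene Rgs5 to -0.42 (SE 0.21) for Cspg4, a pericyte proteoglycan. Their summed level was 274, 332 and 403 TPM in controls 1, 2 and 3, the order of Ndufa4l2 among controls, and 371, 492 and 297 TPM in DST-MNs 1, 2 and 3. Cspg4 had 43.4, 67.5 and 77.9 CPM in controls and 48.4, 48.9 and 43.6 CPM after treatment. The mural receptor gene Notch3 had 149, 207 and 234 CPM in controls and 176, 184 and 152 CPM after treatment. Both were lowest in control 1 and highest in controls 2 and 3, as Ndufa4l2 was. Other mural markers differed from this order. Pdgfrb, Abcc9 and Kcnj8 were highest in DST-MNs 2, at 575, 172 and 67.1 CPM, and Rgs5 in DST-MNs 1, at 28.1 CPM. Of the 7 markers, 5 were lowest in control 1 and 3 were highest in control 3. The part of mural cells in the values of Ndufa4l2 was not tested. Of 11 measured hypoxia genes, edgeR called 1 lower, the vasodilator peptide gene Adm, and DESeq2 called 2 lower, Adm and the glycolytic enzyme gene Pgk1. Neither tool called any higher. Adm had 34.1, 45.9 and 27.4 CPM in controls and 9.22, 12.8 and 10.2 CPM after treatment (-1.74 in log2, SE 0.23, edgeR adjusted p = 0.0311, where 0.118% of all genes passed as lower). Vegfa stood at 0.01 (SE 0.50) and Pgk1 at -0.74 (SE 0.21, edgeR adjusted p = 0.168, DESeq2 adjusted p = 0.0158).

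Cox4i2, the paralogue of Cox4i1 tied to oxygen sensing, was at 20.5, 38.04 and 30.7 TPM in controls and 28.45, 36.8 and 32.3 TPM after treatment, within the control range. It made up 1.64% to 3.44% of its pair (exact permutation p = 0.9). Cox6b2, best known from testis, was at 18 to 24.8 TPM in controls and 16.2 to 25.5 TPM after treatment, and made up 2.43% to 3.76% of its pair (exact permutation p = 1). Cox6c, a small subunit with no paralogue among the members, had 137, 155 and 134 CPM in controls and 122, 98.7 and 121 CPM after treatment. The treated values lay below the controls, with DST-MNs 2 the lowest (-0.32 in log2, SE 0.13, edgeR adjusted p = 0.292). Cox6b1 was at -0.19 (SE 0.11), Cox6a1 at -0.19 (SE 0.12), Cox8a at -0.13 (SE 0.10) and Cox4i1 at -0.16 (SE 0.17). On the log2(TPM + 1) scale Cox8a turned to 0.05 and Cox4i1 to 0.00.

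Other mitochondrial genes gave a mixed picture. Of 11 coenzyme Q synthesis genes, 9 had positive log2 changes, with a median of 0.37 beside 0.00 for all genes, and 0 passed edgeR's or DESeq2's test over all genes. Before adjustment 3 of them had an edgeR p below 0.05, all higher, where 9.8% of all genes tested were higher at such a p. They were Coq5, a methyltransferase, at 0.51 (SE 0.17, edgeR adjusted p = 0.208), Coq9, a lipid-binding partner, at 0.42 (SE 0.14) and Pdss2, which builds the side chain, at 0.40 (SE 0.17). Coq9 had 38.7, 29.0 and 33.1 CPM in controls and 41.0, 44.9 and 48.8 CPM after treatment. It was higher without overlap, as were 12.9% of all genes tested. The 16 citric acid cycle and pyruvate dehydrogenase genes had a median of -0.01, with 0 called by edgeR or DESeq2 and values from -0.26 for Suclg2, a succinyl-CoA ligase subunit, to 0.29 for Pdhb, a pyruvate dehydrogenase subunit.

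Assembly factors, which build the complexes without staying in them, had medians of -0.05 over 14 genes for complex I, -0.16 over 9 for complexes II and III, 0.02 over 19 for complex IV and 0.13 over 4 for complex V. No assembly gene passed over all genes with edgeR or DESeq2. Acad9 and Ndufaf7, complex I factors, were at 0.53 (SE 0.17) and 0.52 (SE 0.18). The complex IV copper factor Cox11 was at -0.54 (SE 0.21). Each of these genes had an unadjusted edgeR p below 0.05 and no overlap of the groups. Of all genes tested, 16.7% had such a p and 22.9% had no overlap, in either direction. Regulators of mitochondrial gene expression had a median of -0.06 over 13 genes, with 0 called by edgeR or DESeq2 and 0 at an unadjusted p below 0.05 in edgeR. Nrf1 stood at -0.06 (SE 0.12), Esrra at -0.08 (SE 0.12) and Tfam, which packages mitochondrial DNA, at -0.18 (SE 0.12). The coactivator gene Ppargc1a was low at 2.86, 0.932 and 1.48 CPM in controls and 3.16, 4.33 and 1.73 CPM after treatment, with overlap (log2 change 0.81, SE 0.52). The 11 energy carrier genes, such as creatine kinases and ADP/ATP carriers, had a median of 0.03, with 0 called by edgeR and 1 by DESeq2. That was Ckmt1, the ubiquitous mitochondrial creatine kinase, at 3.65 with edgeR (adjusted p = 0.199) and 3.67 with DESeq2 (adjusted p = 0.0063). It had 1.55, 0.0776 and 1.17 CPM in controls and 24.2, 1.69 and 9.42 CPM after treatment, and was highest in DST-MNs 1.

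**Figure D5:**
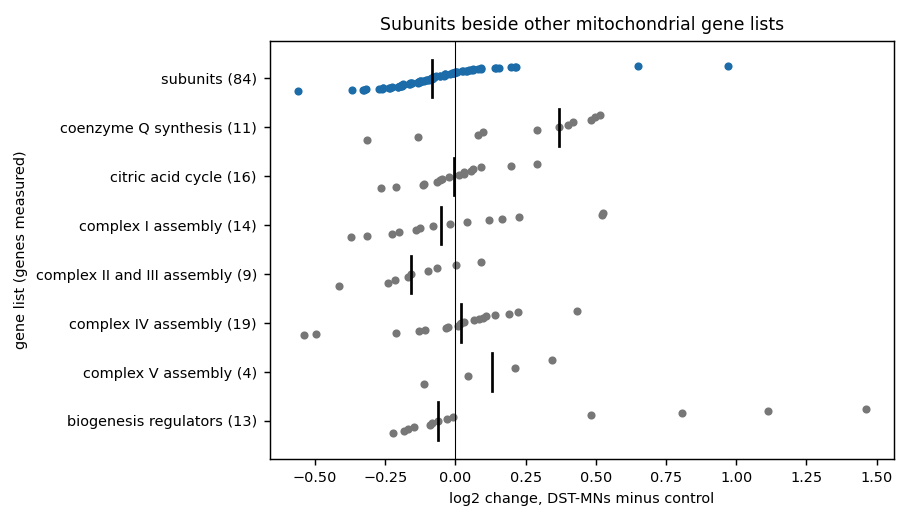
Log2 changes (DST-MNs minus control) of the 84 subunit genes and of genes in 7 other mitochondrial lists, with 1 point a gene and a line at each median. The subunits have a median of -0.08, and the coenzyme Q synthesis genes one of 0.37.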

How the data were processed

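The members, lists and tests were chosen with earlier results of these data known. TRIzol RNA of 6 wounds was sequenced as messenger RNA libraries on a DNBSEQ-T7, per the labels' protocols. The authors deposited 1 table of 18825 genes. Its estimated counts are unscaled per the file headers. Deposited TPM values gave the levels. The deposited FPKM values and the authors' normalised counts (a signal, counts divided by 1 factor a library) were not tested. Per the submitters' processing notes the genome was mRatBN7.2. Aligner and counter: not given in the sources used here. Counts were fractional in some library for 15 members (17.0%, and 12.5% of all genes).

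Expected counts were rounded, filtered with filterByExpr of edgeR 4.0.16 (minimum count 10), given TMM factors and put through the quasi-likelihood test of edgeR (R 4.3.3) at an adjusted p of 0.05 over all 14427 genes. Standard errors are the log2 change divided by the square root of F, with a prior count of 2 for log2 CPM. Paralogue ratios were log2 of TPM with a pseudocount of 1. Alternatives used DESeq2 1.42.0, limma 3.58.1, other factors and filters, a replicate block and leaving out each library. The edgeR test was also run on simulated counts. Named were paralogue pairs, the 3 members of each complex with the smallest p, those of highest and lowest TPM, and up to 3 genes of each other list. Atp5f1a, Atp5f1b, Atp5if1, Sdhb, Notch3, Cspg4 and the 10 members without overlap were named after their values were seen. Libraries held 12545206 to 13818548 counts, and edgeR's p-values set each difference between groups against the spread between libraries of a group. Promoter windows came from RefSeq (GRCr8), another build than the counts. Cox7a1 and mitochondrially encoded genes were not analysed here.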

Additional observations from a re-analysis of the deposited data

How the results depend on the processing

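The count of changed members stayed at 0 in every alternative run, including each library left out. Over all genes the count was 112, against 1018 with DESeq2 and 38 with at least 10 counts in every library, where Cox6a2 and Cox8b were not tested. It was 402, 34 and 53 without controls 1, 2 and 3 and 23, 34 and 14 without DST-MNs 1, 2 and 3. Replicate numbers are not stated to mark shared animals, and deviations of same-numbered libraries correlated at -0.02, 0.10 and 0.11, so they were not treated as pairs. With the replicate block 0 members changed and their median was -0.09. With library totals only, medians were 0.048 for complex I, 0.057 for complex II, 0.037 for complex III with cytochrome c, -0.028 for complex IV and 0.024 for complex V, and log2 changes turned to 0.075 for Cox4i2, 0.040 for Ndufa4, 0.036 for Sdhc and 0.036 for Sdhd, a result of the shift of all genes by these factors. On log2(TPM + 1), an alternative chosen after seeing the data, they turned to 0.0037 for Cox4i1, 0.16 for Cox4i2, 0.048 for Cox8a, 0.081 for Ndufa4, 0.070 for Sdhc and 0.076 for Sdhd. With 1 library left out, the log2 change ran from -0.24 to 0.18 for Cox4i2, from -0.15 to 0.016 for Ndufa4 and from -0.028 to 0.16 for Sdha. The log2 ratio difference ran from -0.17 to 0.36 for Cox4i2 against Cox4i1 (0.16 with all libraries) and from -0.16 to 0.15 for Cox6b2 against Cox6b1 (0.0011), which was -0.00045 at a pseudocount of 0.1 TPM, also added later. The cause of these shifts was not tested, and none of the values passed a threshold. Placing Ndufa4 and Ndufa4l2 with complex IV moved no median by more than the spread between libraries. Of the values of single genes under an alternative, 328 kept their direction and side of the threshold and 15 changed sign.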
